A study of Mus musculus with 65 samples.

Results

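CTCF sites gained in megakaryocytes are genomic intervals at which both CTCF ChIP-seq peak lists of maturing megakaryocytes (iMk, libraries 1908 and 1910) held a peak and the lists of stem cells, of megakaryocyte and erythroid progenitors and of erythroblasts held none. The members were chosen by these calls alone. Overlapping peaks (1 bp or more in common) of the 11 CTCF lists of primary mouse blood cells were joined, which gave 63339 sites. Of these, 17317 had a peak in both iMk lists. A total of 541 sites had, in addition, no peak in either list of LSK cells (libraries 1295 and 1927), in the MEP list (1978) or in either list of ERY cells (1909 and 1926). They are 0.854% of all merged sites and 3.12% of the sites in both iMk lists. The 16776 other sites in both iMk lists, each with a peak in at least 1 of the 5 lists named, are called shared iMk sites here. The word gained is a name for this pattern of calls, since a peak that was not called does not show that CTCF was not bound.

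The cells of the primary lists were sorted from the bone marrow of male C57BL/6 mice aged between 5 and 8 weeks, and each list is 1 library made with the same CTCF antibody. By the labels, iMk cells were negative for lineage markers, Ter119, Sca1 and cKit and positive for CD41 and CD61, and CFUMk cells, their colony-forming precursors, differed from them in being cKit+. MEP cells were cKit+, Sca1-, CD34- and CD16/32-, LSK cells were cKit+ and Sca1+, and ERY cells were Ter119+ and CD44+ with low forward scatter. GMP and CMP cells were the CD34+ progenitors with and without CD16/32, and CFUE cells were Ter119+ and CD44+ with high forward scatter. The progenitor cells came from several sorts that were fixed apart and pooled, so that such a library stands for many mice. How many mice stand behind the iMk and ERY libraries is not given in the sources used here. The labels give the iMk, LSK, MEP, ERY, CFUMk and CFUE libraries the assessment Pass and the GMP and CMP libraries Low Pass. The cell line was G1E-ER4+E2, an erythroid line from mouse embryonic stem cells without endogenous GATA1, in which 24 hours of estradiol switch on a GATA1 fusion protein. Its 14 CTCF lists and 10 TAL1 lists assessed as Pass were used. Peak lists hold no expression values, so the sorted cell types could not be checked against marker genes.

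CTCF is a zinc finger protein that binds a long GC-rich motif and sits at insulators and at the anchors of chromatin loops, and most of its sites are occupied in many cell types. Megakaryocytes are the large polyploid cells of the bone marrow that shed platelets. They share a bipotent progenitor with red cells, and in the mouse many CTCF motifs lie inside copies of the B2 family of short interspersed elements.

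The 10 gained sites that ranked highest in the iMk lists are shown first, because they are the members farthest from the calling threshold by rank. Each run gives 19 letters in capitals, the best match to a CTCF matrix, with 30 bp on either side in lower case, on the strand of the match. The sequences were read from RefSeq GRCm38.p6. The matrix was learned from the 2000 strongest peaks of the longest G1E-ER4+E2 list, library 299, and its consensus was NNNCCACNAGGGGGCNNNN, where N marks positions at which no base reached 60%.
chr1:30920914-30920992 (+): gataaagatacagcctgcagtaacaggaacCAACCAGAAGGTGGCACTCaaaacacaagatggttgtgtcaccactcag
chr5:3516903-3516981 (-): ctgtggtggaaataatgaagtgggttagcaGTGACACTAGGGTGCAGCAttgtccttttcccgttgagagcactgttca
chr1:84470509-84470587 (-): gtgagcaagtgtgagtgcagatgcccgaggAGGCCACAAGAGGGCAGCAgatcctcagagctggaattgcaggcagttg
chr5:134474091-134474169 (-): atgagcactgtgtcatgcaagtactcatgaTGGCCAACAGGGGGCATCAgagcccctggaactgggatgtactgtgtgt
chr17:36265992-36266070 (+): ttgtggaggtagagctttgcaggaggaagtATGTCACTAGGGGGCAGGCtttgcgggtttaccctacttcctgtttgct
chr14:77783377-77783455 (+): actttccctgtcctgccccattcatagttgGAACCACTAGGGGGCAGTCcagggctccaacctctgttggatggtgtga
chr7:68667387-68667465 (+): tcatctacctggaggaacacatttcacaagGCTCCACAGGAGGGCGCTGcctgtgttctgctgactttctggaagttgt
chr11:118368520-118368598 (-): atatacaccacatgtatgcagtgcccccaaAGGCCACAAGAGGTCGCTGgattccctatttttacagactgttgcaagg
chr5:144051413-144051491 (+): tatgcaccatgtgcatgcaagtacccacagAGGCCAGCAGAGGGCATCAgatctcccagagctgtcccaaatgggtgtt
chr8:18916483-18916561 (-): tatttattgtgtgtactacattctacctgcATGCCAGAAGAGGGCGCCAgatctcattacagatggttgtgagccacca
The chr1 site near Ptp4a1, a protein tyrosine phosphatase gene, had the highest rank of all members. The chr5 match beginning at 3516933 lies in an intron of Cdk6, a cell cycle kinase gene. The chr17 match lies in an intron of Trim39. The chr1 match near 84470539 lies in an intron of Dner, and the centres of 6 of the 10 sites lay outside genes.

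Only 6 gained sites had no peak in any of the 9 other primary lists, and all 6 had a match. The sequences of 5 are shown because no other primary list called them.
chr11:57764258-57764336 (+): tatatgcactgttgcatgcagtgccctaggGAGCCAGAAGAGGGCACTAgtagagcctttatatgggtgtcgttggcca
chr3:16004049-16004127 (+): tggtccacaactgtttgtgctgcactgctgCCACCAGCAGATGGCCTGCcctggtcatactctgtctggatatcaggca
chr17:15533229-15533307 (+): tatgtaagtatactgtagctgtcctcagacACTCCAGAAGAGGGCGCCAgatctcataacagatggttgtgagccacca
chr5:130951281-130951359 (+): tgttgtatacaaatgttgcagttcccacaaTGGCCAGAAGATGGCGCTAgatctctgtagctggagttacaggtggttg
chr8:126905753-126905831 (-): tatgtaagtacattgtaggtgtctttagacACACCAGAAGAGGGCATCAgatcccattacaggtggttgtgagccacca
The centres of these 5 sites lay in introns of Gm5150, Galnt17 and Gm31718, in Galnt10 within 1000 bp of the start of the annotated 5S ribosomal RNA gene n-R5s69, and outside genes near Pdcd2. The matches on chr8 and chr17 and at chr11 lie wholly in soft-masked, that is repeat-derived, sequence, as do 3 of the 10 matches shown above. The match at chr17 and that of the chr8 site near Xkr5 in the first group are both followed by the letters GATGGTTGTGAG, a word taken up below.

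The last sequences are those of the 3 gained sites at genes of the megakaryocyte and platelet list.
chr11:16967960-16968038 (+): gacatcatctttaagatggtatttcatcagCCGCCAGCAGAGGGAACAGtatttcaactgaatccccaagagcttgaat
chr11:17019489-17019567 (+): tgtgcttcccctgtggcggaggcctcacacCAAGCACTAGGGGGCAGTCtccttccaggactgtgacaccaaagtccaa
chr16:92615588-92615666 (+): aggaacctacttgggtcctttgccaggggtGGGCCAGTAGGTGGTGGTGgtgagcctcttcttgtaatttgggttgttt
The first of them lies 3′ of Plek, which encodes pleckstrin, a protein kinase C substrate of platelets. The second lies inside Plek, in an exon of the processed pseudogene Gm12014, and the third lies in an intron of Runx1, a transcription factor that megakaryocytes need. A pseudogene can share reads with its parent gene, and whether this affected the second site was not tested.

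The gained sites had weak peaks in the lists that chose them, and these values are given as a description. In library 1908 the −log10 p of the 541 sites, the score that MACS gives a peak and that the lists cut at 5, ran between 5.00 and 47.9 with a median of 7.58. The median of the shared sites in that library was 19.2. In library 1910 the gained sites lay between 5.03 and 33.7 with a median of 8.27, against a median of 18.8 at shared sites. Fold enrichment over background had medians of 8.92 and 12.5 in the 2 libraries at gained sites and of 15.8 and 21.1 at shared sites. In 300 gained sites (55.5%) both iMk peaks were under 10 on the −log10 scale, and in 76 (14%) both reached 10. The joined intervals of gained sites were also narrower, with a median of 797 bp against 954 bp. A shared interval also takes in peaks of the lists that the rule excludes, so these widths are not those of the iMk peaks.

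Ranks within a list, on which 100 is the strongest peak, are free of the scale of the scores and gave the same picture. The median rank percentile of gained sites was 17.5 in library 1908 and 24.3 in library 1910, against 56.6 and 60.5 at shared sites. When all 17317 sites were ordered by their mean rank in the 2 lists and cut into 10 equal classes, 271 of the 1732 sites of the weakest class met the rule (15.6%). The share was 7.91%, 4.22%, 2.42% and 0.751% in the next classes. The 5 strongest classes held 5 gained sites in all. Counted in quartiles of the same order, 446 of the 541 members (82.4%) lay in the weakest and 90 in the next.

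**Figure D1:**
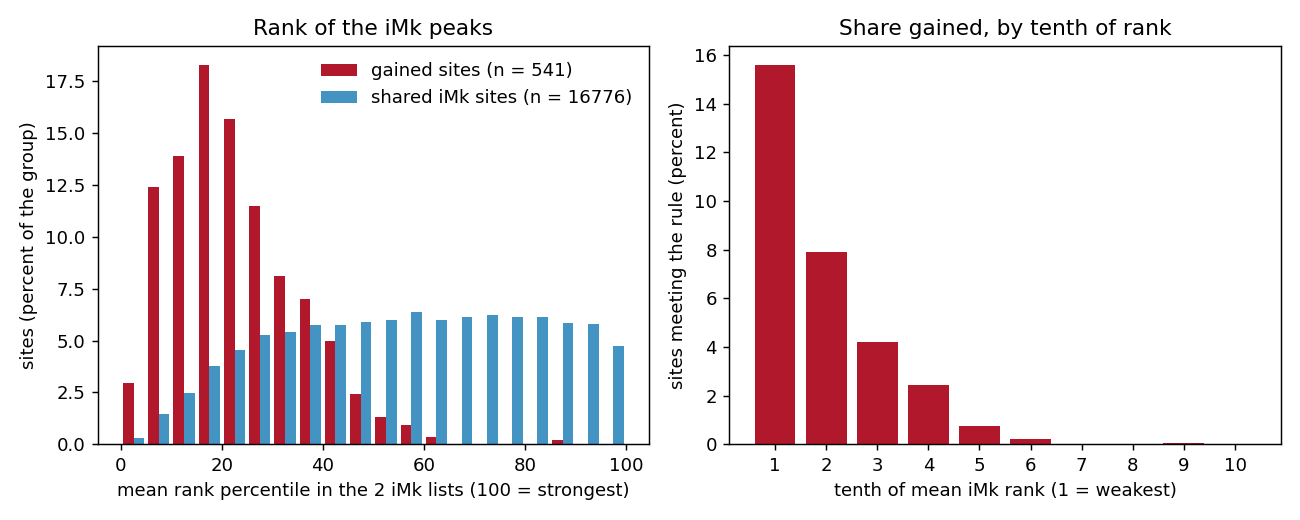
Left, percent of the gained sites (red) and of the shared iMk sites (blue) by mean rank percentile in the iMk lists, on which 100 is the strongest peak. Right, percent of sites in both iMk lists that met the rule, by class of that rank in 10 equal classes. The weakest class has 15.6% and the next 7.91%, and class 9 holds 1 member.

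The site that stands apart from this pattern lies on chromosome 1 from 30920462 to 30921388, in intergenic sequence 28384 bp from the start of Ptp4a1. Its peaks had −log10 p of 47.9 in library 1908 and 33.7 in library 1910, fold enrichments of 24.5 and 32.6, and rank percentiles of 93.1 and 84.8. It was called in CFUMk and GMP, not in CMP or CFUE, and in 3 of the 14 G1E-ER4+E2 lists. Its mean rank of 89.0 was well above that of the next member, at 61.4. That second site, on chromosome 5 from 3516567 to 3517372 in Cdk6, had −log10 p of 20.1 and 20.4, and it was called in CFUMk, in GMP and in 2 cell line lists. The mean ranks of the other 8 of the 10 strongest sites lay between 53.5 and 60.7. All 10 were called in CFUMk and 9 in GMP, the exception being the chr14 site in Gm30467.

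How close members lie to the edge of the rule can be read at single sites. By the lower of its 2 iMk values, a site in Cdkl3, a kinase gene, was nearest to the threshold, with −log10 p of 5.00 and 5.33. Just outside the rule, a site in Hip1 with iMk values of 11.9 and 10.8 was kept out by a single LSK peak of 5.007, and a site near Bclaf1 with 6.81 and 7.49 by a single MEP peak of 5.011. In all, 1388 sites were, like these, called in exactly 1 of the 5 lists. Most of these single calls came from the longer LSK list: library 1927 alone kept out 1062 sites, library 1295 alone 158, the MEP list alone 98, and the ERY lists alone 45 (1909) and 25 (1926).

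List length differed widely among the lists of the rule. The iMk lists held 19612 and 21494 peaks, the LSK lists 18945 (1295) and 28476 (1927), the MEP list 15002, and the ERY lists 8284 and 6629. The length of the deposited list of LSK library 1295 is not the one printed for it in the study, and the deposited list was used. Of the 17317 sites in both iMk lists, 39.7% and 32.9% had a peak in the ERY lists, against 84.4% and 93.9% in the LSK lists. Thus 751 sites were free of LSK peaks, 618 of these were also free of MEP peaks, and 541 of ERY peaks as well. The same rule written for the other cell types gave 1297 sites for LSK, 7.31% of the sites in both LSK lists, and 24 for ERY, 0.518% of the sites in both ERY lists. With every primary list cut to its 6629 strongest peaks, the length of the shortest, the iMk rule gave 128 sites, of which 1 overlapped a gained site. Without library 1927 the rule gave 1603 sites, and with library 1910 or library 1908 as the only iMk list it gave 2088 or 1059. The equal-length lists keep only the strongest peaks, and most members ranked low in the iMk lists, so that this comparison does not separate the length of a list from the strength of its peaks.

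The first question that calls outside the rule can answer is whether precursor megakaryocytes also held the sites. The CFUMk list had a peak at 533 of the 541 gained sites (98.5%, Wilson 95% interval 97.1 to 99.2), against 16763 of the 16776 shared sites (99.9%). Over all sites in both iMk lists 99.9% were called in CFUMk, a share slightly above the interval of the members. Within the weakest quartile of iMk rank CFUMk called 98.2% of gained sites (96.5 to 99.1) and 99.8% of shared sites (99.6 to 99.9). The CFUMk list, with 36481 peaks, was the longest of the primary lists and covered 57.4% of all 63339 merged sites. At the gained sites the CFUMk peaks had a median −log10 p of 18.8 and a median rank percentile of 42.2, against 57.1 and 76.7 at the shared sites. The 1297 sites of the LSK rule, of which none had iMk peaks, were called in CFUMk at 94.5%.

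The granulocyte and monocyte progenitors called fewer of them. A GMP peak lay at 314 gained sites (58.0%, 53.8 to 62.1), against 15385 shared sites (91.7%, 91.3 to 92.1), and the share over all sites in both iMk lists was 90.7%. The GMP share was 53.2% over all 63339 merged sites and 51.6% of the 1297 sites of the LSK rule, both near that of the gained sites. Within the weakest quartile of iMk rank 246 of 446 gained sites (55.2%, 50.5 to 59.7) and 79.9% of the shared sites (78.6 to 81.1) were called. In the next quartile the values were 63 of 90 gained sites (70%, 59.9 to 78.5) and 89.6% of shared sites. The gap thus narrowed when sites of like rank were compared. Each shared site was chosen by a call in an LSK, MEP or ERY list and gained sites by the lack of one. A lower gained share in GMP was thus favoured by the choice of sites, at like rank too. GMP is 1 library assessed as Low Pass, with a list of 34416 peaks, and there is no replicate to test the difference.

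Calls were rarer in the remaining progenitors. The CMP list, with 26316 peaks and also assessed as Low Pass, had a peak at 91 gained sites (16.8%, 13.9 to 20.2) and at 74.8% of shared sites, with 73.0% over both. The CFUE list, with 11990 peaks, had one at 36 gained sites (6.65%, 4.85 to 9.07) and at 41.9% of shared sites, with 40.8% over both. In the weakest quartile CMP called 15.2% of gained and 51.3% of shared sites, and CFUE 6.28% and 12.7%. The choice of sites favoured lower gained shares in these lists as well. Of the sites of the LSK rule CMP called 34.1% and CFUE 2.08%, and of all merged sites 40.9% and 18.7%. The CMP share was 30.9% of the 1603 sites that met the rule without LSK library 1927, and the CFUE share 3.83% of the 2088 sites that met it without iMk library 1908. In each of these lists the gained sites that were called had weaker peaks than the shared ones, with median rank percentiles of 45.2 against 75.3 in GMP, 39.7 against 72.8 in CMP and 36.0 against 67.7 in CFUE.

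**Figure D2:**
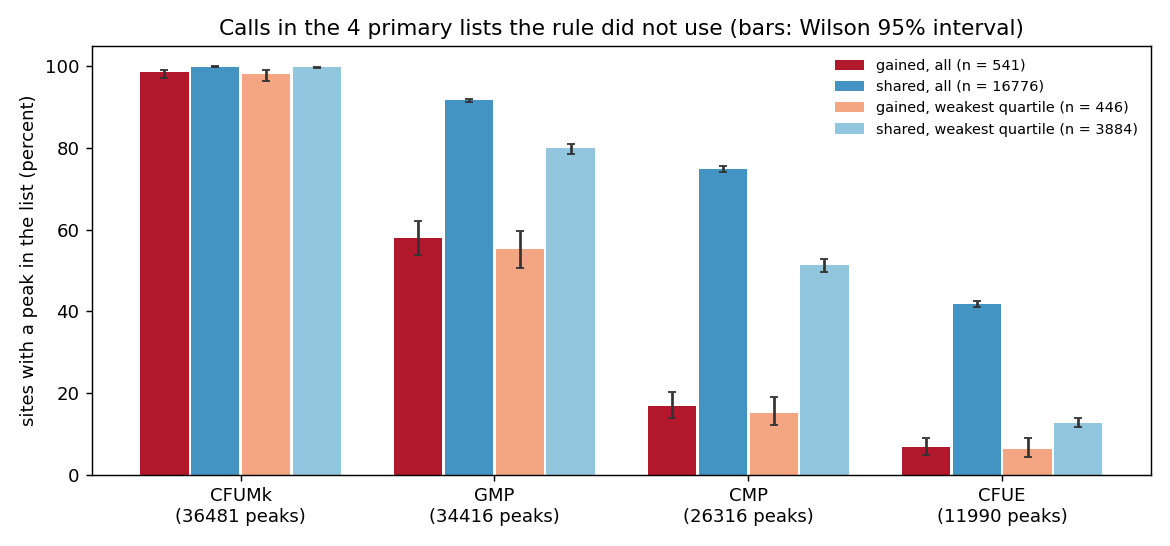
Percent of gained and of shared iMk sites with a peak in the CFUMk, GMP, CMP and CFUE lists, for all sites and for the weakest quartile of iMk rank, with Wilson 95% intervals. Nearly every gained site was called in CFUMk (98.5%), and 58.0%, 16.8% and 6.65% in GMP, CMP and CFUE, below the shared sites in each.

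By combination, 238 gained sites (44.0%) were called in CFUMk and GMP only, 181 (33.5%) in CFUMk only, 48 in CFUMk, GMP and CMP, and 30 in CFUMk and CMP. The 4 lists together held 11 of the sites, and 6 sites were in none of them. The 6 had mean iMk ranks between 5.06 and 18.8, so they were among the weaker members. Combinations were not counted at shared sites. Of all sites in both iMk lists CFUMk called 99.9% and GMP 90.7%, so a CFUMk call is not particular to the members.

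The 14 G1E-ER4+E2 lists gave replicated calls in an erythroid cell line that the rule did not use. The list that called fewest had a peak at 7.02% of the gained sites and the one that called most at 52.9%, with a median over lists of 16.7%. For the shared sites the lowest list had 53.7%, the median was 65.2% and the highest was 85.6%. The groups did not overlap, since the highest share of gained sites lay under the lowest share of shared sites. The mean was 21.3% ± 12 at gained and 66.7% ± 9.08 at shared sites (SD, n = 14 lists), a difference of −45.5 percentage points ± 4.86 (SD). The gained share was the lower one in 14 of 14 lists. A two-sided exact sign-flip permutation test over the lists gave p = 1.22e-04, the smallest it can give, and a Benjamini-Hochberg adjusted p of 1.42e-04 over 7 tests. The labels do not say whether the libraries are separate cultures, so the p-values measure the spread between these lists. The groups were themselves set apart by calls in other CTCF lists, among them those of ERY cells. A lower gained share was thus favoured by the choice of sites, and the test is not independent support for it.

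Part of this difference went with the rank of the sites in iMk. Within the weakest quartile, 18.8% ± 11.5 of gained and 41.9% ± 13.5 of shared sites were called, a difference of −23.1 points (SD 3.40, n = 14, permutation p = 1.22e-04, adjusted p = 1.42e-04). In the next quartile the values were 33.1% ± 14.4 and 58.8% ± 11.8, a difference of −25.7 points with the same p-values. The gained share was lower in 14 of 14 lists in each. Within a quartile the groups were still set apart by calls in other CTCF lists, so these tests are not independent support either. In 10 classes of rank, a split added after the data were seen, the difference was −17.8, −23.9, −22.4 and −26.8 points in the 4 weakest, the ones with at least 20 members.

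The number of gained sites that a list called followed the length of that list. Over the 14 lists Pearson's r was 0.988 (permutation p = 2.00e-05, adjusted p = 7.00e-05) and Spearman's rho 0.856 (permutation p = 1.60e-04, adjusted p = 1.60e-04). Without the 2 lists whose length was farthest from the median r was 0.959 (permutation p = 1.20e-04). For the shared sites r was 0.926 (permutation p = 2.00e-05, adjusted p = 7.00e-05) and rho 0.908. The longest list, library 299 with 21986 peaks, called 286 gained sites, and the shortest, library 733 with 10655, called 38. Among the 9 lists of libraries numbered 692 to 735, a subset added after the data were seen, r was 0.973 (permutation p = 6.80e-04) and the difference between gained and shared sites was −47.4 points (exact permutation p = 0.00391).

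**Figure D3:**
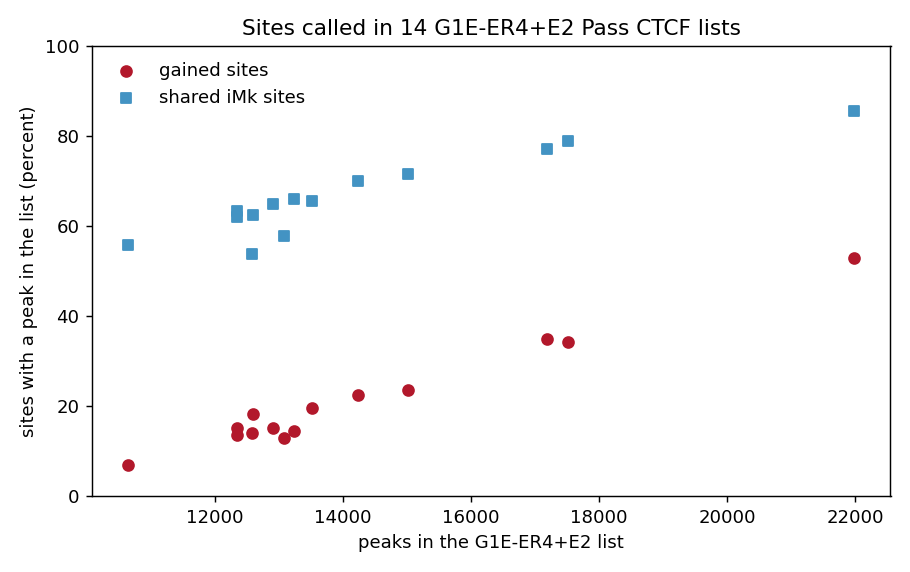
Percent of the gained sites (red circles) and of the shared iMk sites (blue squares) with a peak in each of the 14 G1E-ER4+E2 Pass CTCF lists, against the number of peaks in the list. Gained sites reach 52.9% in the longest list and shared sites are above them in every list.

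Seen by site, 333 of the 541 gained sites (61.6%) had a peak in at least 1 of the 14 lists, against 88.3% of the shared sites and 87.5% of all sites in both iMk lists. The other 208 (38.4%) were called in none. A gained site was called in a median of 1 list and a shared site in a median of 12. Of the 76 gained sites found in exactly 1 list, 43 were found in library 299. At the other end, 104 gained sites (19.2%) were called in 7 or more lists and 7 in all 14, against 70.8% and 5514 of the shared sites. So some of the members absent from the ERY lists were regularly called in this erythroid line.

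Among those 7, the 5 of highest iMk rank lay in introns of Eif4g3, Ctnnbl1 and Nbas, and between genes near Pts and Ptk2. The site in Eif4g3, a translation initiation factor gene, on chromosome 4 from 138107607 to 138108568, had iMk −log10 p of 21.2 and 12.4. The site in Ctnnbl1, on chromosome 2 from 157755943 to 157756861, had 9.78 and 13.5. All 5 were called in CFUMk and none in CMP or CFUE, and all but the site in Nbas were called in GMP.

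**Figure D4:**
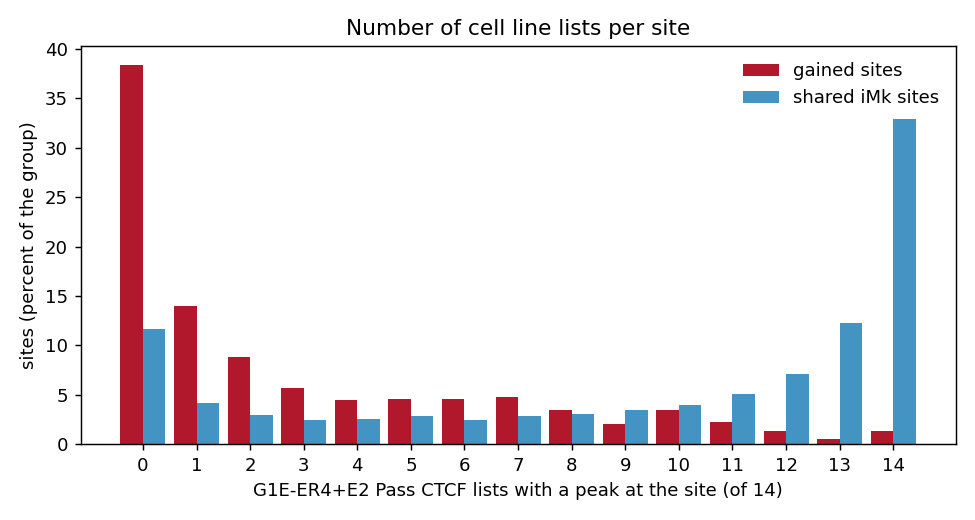
Percent of gained (red) and of shared iMk sites (blue) by the number of G1E-ER4+E2 Pass CTCF lists, of 14, that held a peak there. Of the gained sites 38.4% were in no list and 1.29% in all, against 11.7% and 32.9% of the shared sites.

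TAL1, a basic helix-loop-helix factor that acts in both the erythroid and megakaryocytic lineages, rarely had a peak at the members in the cell line. At 6 gained sites (1.11%) at least 1 of the 10 TAL1 Pass lists had a peak, against 473 shared sites (2.82%) and 2.77% of all sites in both iMk lists. Single TAL1 lists called between 0 and 6 gained sites. Leaving out the library whose title names TAL1 and whose antibody label names CTCF left the count at 6.

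Nearly all gained sites carried a CTCF motif. A match at a p of 0.0001 per position was found in 527 (97.4%, 95.7 to 98.5) on either strand, against 98.8% of shared sites and 40.7% of windows of the same length 10 kb away. At the stricter p of 1e-05 the shares were 88.7% of gained and 92.3% of shared sites, and 11.6% of the distant windows. Within the weakest quartile of rank the stricter shares were 88.1% (84.8 to 90.8) at gained and 88.0% (86.9 to 88.9) at shared sites. The best match scored a median of 18.1 log2 odds at gained sites and of 19.3 at shared sites, and 17.8 against 18.2 within the weakest quartile. Within this quartile the motif was thus found about as often at gained as at shared sites.

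Gained and shared sites differed in where the motif lay. Of the 527 matches, 211 (40.0%, 35.9 to 44.3) were wholly in soft-masked sequence, which RefSeq marks as repeats, against 2155 of 16579 matches at shared sites (13%, 12.5 to 13.5). Within the weakest quartile the shares were 38.5% (34.1 to 43.2) and 20.2% (18.9 to 21.5). Counted the other way, 8.92% of the sites in both iMk lists with a soft-masked match met the rule, and 2.14% of those with a match outside repeats. In the weakest quartile these shares were 17.9% and 8.10%, and in the next quartile 6.14% and 1.23%. Over the whole interval, at least 50% of the bases were soft-masked in 96 gained sites (17.7%, 14.8 to 21.2) and in 5.93% of shared sites. In the middle 200 bp the shares were 37.9% and 10.8%. Within the weakest quartile the gaps were smaller, at 17.9% and 8.83% over the whole interval and 38.1% and 17.7% in the middle 200 bp. The whole-interval share of all gained sites, 17.7%, became 4.69% of the 128 sites of the equal-length lists. It was 27.3% without iMk library 1908 and 31.1% when only the middle 200 bp of each peak was joined.

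Gained sites with a soft-masked match had about the iMk rank of gained sites with a match outside repeats, at a median of 21.2 against 20.4. GMP called 60.7% against 56.0% of them, CMP 13.7% against 17.7%, and the cell line lists on average 23% against 20%. No cell line list called 30.3% of them, against 43.0% of the others. At shared sites GMP called 87.4% of those with a soft-masked match and 92.4% of those with a match outside repeats. CMP called 56.8% and 77.6% of these, and the cell line lists on average 64.3% and 67.4%. No cell line list called 9.23% and 11.9% of them. Read mapping is less certain in repeats. The lists hold no mapping qualities, so its part in these shares was not tested.

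Some of these repeats shared sequence next to the motif. The word GATGGTTGTGAG, the 12 letters that most often followed a soft-masked match at shared sites, was searched in the 60 bp after the match on its strand. It was found after 33 of the 527 matches of gained sites (6.26%) and after 210 of 16579 at shared sites (1.27%). With 1 mismatch allowed the shares were 14% and 2.76%. Among soft-masked matches alone, with no mismatch, they were 14.7% and 8.96%. Within the weakest quartile of iMk rank the word followed 6.19% of gained and 2.68% of shared matches. Among the soft-masked matches of that quartile the shares were closer, at 14.9% and 11.8%. On either strand anywhere in the interval the word was in 9.80% of gained and 4.36% of shared sites, and in 3.70% and 5.79% of windows 10 kb away. The search was made after the sequences above were seen, and repeat families were not assigned.

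By the GENCODE M21 annotation, the centre of a gained site lay in an intron in 266 cases (49.2%, 45.0 to 53.4), between genes in 200 (37.0%), within 1000 bp of a transcript start in 54 (9.98%, 7.73 to 12.8) and in an exon in 21 (3.88%). At shared sites the shares were 41.1%, 38.6%, 14.8% and 5.59%. Promoter shares within the weakest quartile were 10.8% (8.21 to 14) and 13.6% (12.5 to 14.7), so the intervals met. Intron shares there were 49.3% (44.7 to 54.0) and 45.0% (43.4 to 46.6), and these intervals met as well. The median distance to a transcript start was 8553 bp at gained and 8474 bp at shared sites. GC content was 44.8% against 47.4% and, in the weakest quartile, 44.9% against 45.8%. A CpG, the dinucleotide whose methylation can hinder CTCF, stood in 42.9% of gained matches and in 50.3% of shared ones, and in 45.0% and 43.3% within the weakest quartile.

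Of the 54 sites at transcript starts, 30 were within 1000 bp of the start of a protein-coding gene.

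**Figure D5:**
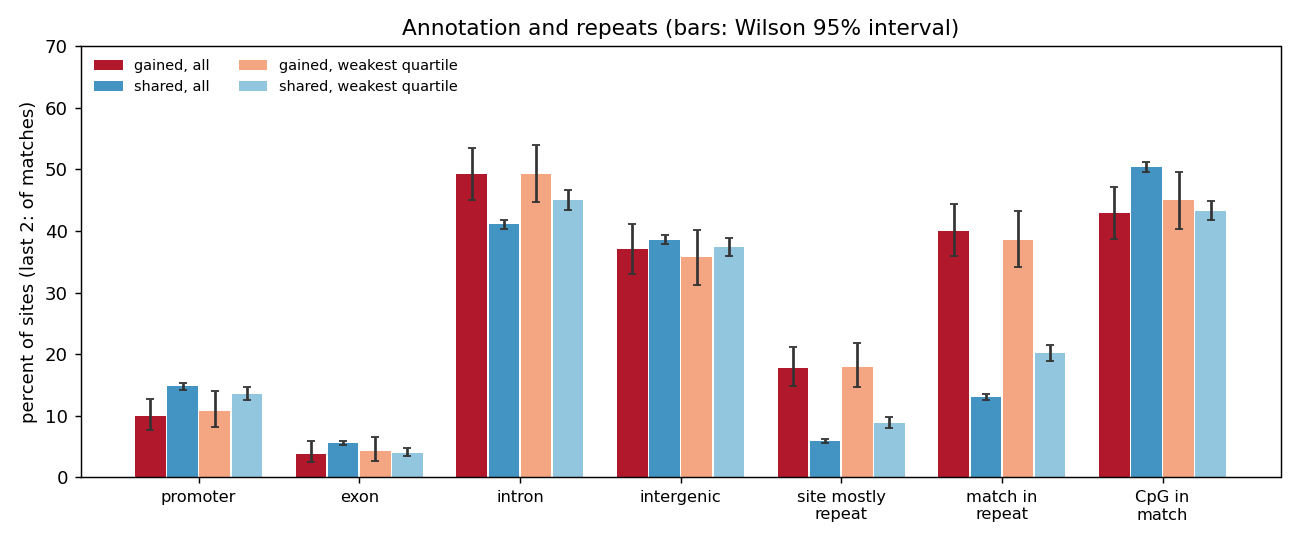
Percent of gained and of shared iMk sites by annotation of the site's centre, with at least 50% soft-masked bases, with a wholly soft-masked CTCF motif match and with a CpG in the match (the last 2 of matches), for all sites and for the weakest quartile of iMk rank, with Wilson 95% intervals. Soft-masked matches make up 40.0% at gained and 13% at shared sites.

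Gained sites were spread over the genome as single sites. The median gap between a member and the nearest other member was 840893 bp, 476 members had none within 100 kb, and 2 lay within 1000 bp of each other. The largest stretch, on chromosome 3 from 54487633 to 54595819 between Postn and Supt20, held 3 members and 4 sites of both iMk lists. The other stretches named by the rule held 2 members each, in Spen on chromosome 4 and in Anks1 and Taf11 on chromosome 17. The nearest peak of the 5 lists of the rule was a median of 15597 bp away, and 33 members (6.10%) had one within 1000 bp. The nearest shared iMk site was a median of 24554 bp away, against 17607 bp between neighbouring shared sites.

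The X chromosome held 24 gained sites, 8.96% of its 268 sites in both iMk lists. On the 19 autosomes the share ran between 1.62% and 4.53%. X sites had weaker iMk peaks in general, with a median mean rank of 31.4 against 56.9 on autosomes. In the weakest quartile of rank the shares were 13.5% on X (20 of 148 sites) and 10.2% on autosomes, and in the next quartile 4.76% on X (4 of 84 sites) and 2.03% on autosomes. The mice were male, and no cause of the X share was tested.

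Lists of genes were checked for a gained site inside the gene or within 10 kb of it. Of 21911 protein-coding genes 522 had one (2.38%), with a median length of 37164 bp against 17433 bp for all. Of the 40 megakaryocyte and platelet genes, Plek and Runx1 did (5.00%), while 21 of the 40 (52.5%) had a shared iMk site, against 48.3% of all protein-coding genes. None of the 15 genes of the proplatelet cytoskeleton, the 16 of endomitosis and cytokinesis, the 28 erythroid and the 18 stem and progenitor genes had a gained site. One of 18 granulocyte and monocyte genes, S100a8, a calcium-binding protein of neutrophils, had one 4165 bp away, and 1 of 18 lymphoid genes, Pax5, a B cell factor, had one inside it. Counts of 0 to 2 genes per list are too small to set the lists apart from the 2.38% of all genes.

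The site 3′ of Plek, on chromosome 11 from 16967570 to 16968262, had −log10 p of 6.53 in library 1908 and 11.5 in library 1910. The site inside Plek, from 17019121 to 17019856, had 6.50 and 7.1. Both were called in CFUMk, not in GMP, CMP or CFUE, and in 1 of the 14 cell line lists. The Runx1 site, on chromosome 16 from 92615206 to 92616121, had 8.56 and 5.82 and was called in CFUMk and GMP and in no cell line list. All 3 were weak members, with mean rank percentiles of 25, 14.3 and 15.2.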

How the data were processed

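CTCF was mapped by ChIP-seq in primary mouse cells and in G1E-ER4+E2 cells. The authors mapped reads to mm10 with Bowtie (1.0.0 in the submitters' processing notes, an earlier version in the paper's methods). They ran MACS 1.3.7.1 on each library. For most G1E-ER4+E2 experiments the paper reports a composite input as the control, pooled from several libraries of that line. Input samples of the primary cells, among them iMk, LSK, MEP and ERY, are part of the series. Differences in control between lists were not taken into account here. The p cutoff and the handling of duplicates are not given in the sources used here. The deposited lists give, per peak, the authors' fold enrichment, the −log10 of the p-value (at least 5) and an FDR, a q-value that was not used. Read depth is unknown, so strength was compared as rank within a list, and the number of libraries and peaks limits the precision.

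Members, lists of genes and tests were chosen with earlier results of these data known. Sites named are the 10 strongest members, those of no other primary list, those at megakaryocyte genes, the 3 largest stretches, the 5 called in most cell line lists and the 2 nearest the edge of the rule on each side. A few of the named sites are not reported here. Motifs were scanned with a 19 bp matrix learned in 15 rounds, and sequence and annotation were RefSeq GRCm38.p6 and GENCODE M21. Wilson intervals at 95% cover counting error only. Lists were compared by sign-flip permutation of the paired shares and correlations by 100000 permutations, tested on simulated data (Python 3.11.15, numpy 2.4.6, pandas 2.3.3, scipy 1.17.1). Alternatives were other joining of peaks, a −log10 p of 10, lists of equal length, leaving out each list, other promoter windows, repeat and motif criteria. Lists of the cell line assessed as Low pass or Fail were not used here.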

Additional observations from a re-analysis of the deposited data

How the results depend on the processing

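The number of gained sites was 541 as reported, 521 with peaks up to 500 bp apart joined, 570 with only the middle 200 bp of peaks, and 724 with a −log10 p of 10 or more in every list, of which 76 overlapped a gained site. With that limit in the iMk lists alone it was 76, and with lists of equal length 128, of which 1 overlapped a gained site. Leaving out 1 primary list gave 566 to 2088 sites. The share called in CFUMk was 95.3% with the middle 200 bp, 99.6% with the limit in every list, 100% with it in the iMk lists and 35.2% with equal lengths. The share called in GMP was 49.2% with the limit in every list, 76.3% with it in the iMk lists and 24.2% with equal lengths. Leaving out 1 list gave 70.8% to 99.0% for CFUMk and 38.6% to 68.2% for GMP, and the values without library 1908 were the lowest of both. The difference from shared sites in the cell line stayed negative and past the threshold in every alternative, at −51.0 to −41.9 points when 1 list was left out, −32.3 with the limit in every list, −40.9 with it in the iMk lists and −16.3 with equal lengths. In each alternative the choice of the groups by their calls favoured a negative difference. Promoter shares were 19.6% with a window of 2500 bp, and the motif was found in 84.1% of gained sites when only the middle 200 bp of the stronger iMk peak was scanned and in 93.5% with the CTCF consensus and up to 2 mismatches. The share called in CMP was 9.25% and in CFUE 3.87% with the limit in every list, and in CFUE 11.7% with equal lengths. Of the alternatives to the CMP, CFUE, TAL1, promoter, repeat and motif shares, 49 stayed within the interval or spread of the reported value and 29 moved past it. The primary libraries could not be paired with each other, because the labels give them no shared replicate numbers. The cell line test paired the shares of gained and shared sites within each list.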
